A study of Mus musculus with 12 samples.

Results

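The interleukins described here are 10 cytokines that mast cells are known to make or carry: Il4, Il5, Il6, Il9, Il10, Il13, Il1a, Il1b, Il16 and Il18. They were taken by gene symbol, with every array probe set annotated to one of them, which gave 13 probe sets of 45037 that are not controls, and 10 genes of 18193. Il16 had 4 probe sets and each of the others had 1, and 0 of the 13 were shared with another symbol. Mast cells were cultured from the bone marrow of C57BL/6 mice, and their RNA was measured on 12 single-colour Affymetrix arrays. For 6 samples the culture medium held 30 ng/ml of interleukin 3 (IL3), a growth factor that drives mast cells from bone marrow precursors, over 4 to 6 weeks. In the other 6 samples stem cell factor (SCF, the ligand of the receptor tyrosine kinase KIT) was present as well, at 100 ng/ml unless the submitters indicated otherwise. No genetic change is named for either group, and all cells received IL3. The labels name no stimulus such as antigen, so the values describe cells in their growth factors alone. The labels give a purity above 99% by dye staining and surface receptors, and they do not say whether replicates came from separate cultures or animals. The p-values therefore rest on the spread among the deposited samples, and that spread may be only technical.

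Mast cells sit in tissues and answer IgE-bound antigen, alarm cytokines and growth factors by releasing stored mediators and by making cytokines. IL4, IL5, IL9 and IL13 are the type 2 cytokines of allergy: they drive IgE production, eosinophils, mucus and mast cell growth, while IL10 restrains inflammation. IL6 and the IL1 family members IL1A, IL1B and IL18 are inflammatory. IL1A, IL1B, IL18 and IL16 lack a classical secretion signal, and IL1B, IL18 and IL16 are cut from precursors by caspases. An RNA level therefore says how much message was present and not how much active cytokine was made or released.

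Il13 was higher with SCF on every array, about 2.87 times by mean signal. Il16 was 1.86 and 1.76 times higher on its brightest pair of probe sets. Il18 was dim without SCF and low, not far above background, with it. Il4 and Il6 were bright in both groups and did not pass the test, and Il1b was lower on average with SCF but also missed the threshold. Il5, Il9, Il10 and Il1a were at background on all 12 arrays.

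The proximal promoters of Il13, Il4, Il18 and Il16 are shown because these are the members whose change, or lack of a call next to a changed neighbour, the results turn on. Each is the 250 bases before an annotated start in RefSeq (GRCm38.p6), written 5′ to 3′ on the gene's strand. Capitals mark matches on either strand to short motifs of factors that act on cytokine genes: AGATAA for GATA factors, GGAAA for NFAT and TGANTCA for AP-1. A STAT motif, TTCNNNGAA, was searched too. Il13 lies at chr11:53634703-53634952 on the minus strand, Il4 (the outermost of 2 starts) at chr11:53618666-53618915 on the minus strand, Il18 at chr9:50554450-50554699 on the plus strand, and Il16 (the outermost of 3 starts) at chr7:83735540-83735789 on the minus strand.
Il13: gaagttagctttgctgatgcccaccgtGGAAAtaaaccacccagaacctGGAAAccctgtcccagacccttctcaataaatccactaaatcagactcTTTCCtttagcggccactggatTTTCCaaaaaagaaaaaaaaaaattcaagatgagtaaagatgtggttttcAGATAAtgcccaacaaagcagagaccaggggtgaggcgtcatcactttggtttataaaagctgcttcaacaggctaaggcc
Il4: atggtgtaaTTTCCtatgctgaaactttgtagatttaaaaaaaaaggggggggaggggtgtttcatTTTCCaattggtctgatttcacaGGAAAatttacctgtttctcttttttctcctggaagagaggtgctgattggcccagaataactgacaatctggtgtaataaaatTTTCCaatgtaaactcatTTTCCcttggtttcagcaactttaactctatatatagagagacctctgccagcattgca
Il18: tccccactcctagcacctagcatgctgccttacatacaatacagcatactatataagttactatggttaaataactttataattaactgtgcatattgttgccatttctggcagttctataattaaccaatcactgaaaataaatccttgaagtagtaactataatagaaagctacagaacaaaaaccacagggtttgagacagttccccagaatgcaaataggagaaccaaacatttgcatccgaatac
Il16: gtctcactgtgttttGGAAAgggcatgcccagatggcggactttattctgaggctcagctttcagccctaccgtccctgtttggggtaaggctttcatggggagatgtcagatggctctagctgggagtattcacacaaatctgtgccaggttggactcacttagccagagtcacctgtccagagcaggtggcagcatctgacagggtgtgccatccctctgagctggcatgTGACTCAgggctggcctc
The Il13 window held 1 AGATAA, 81 bases before the start, and 4 GGAAA matches. The Il4 window held 5 GGAAA matches and no AGATAA. The Il18 window held none of the motifs, and the Il16 window held 1 GGAAA and 1 TGANTCA. In 32851 promoter windows of the same table, AGATAA was found in 9.99%, GGAAA in 55.6%, TGANTCA in 6.75% and TTCNNNGAA in 7.02%. Windows were in the table for 9 of the 10 members, 12 windows in all, and among these AGATAA occurred in Il13 alone. None of the printed matches overlapped another. A match is a run of letters and says nothing of whether a factor was bound in these cells.

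The deposited values are linear probe set signals that were already scaled, with a mean of 1250.01 on each array after trimming and medians of 150 to 202. A signal at or below the 40th percentile of its array is called dim, which was a signal of 60.9 to 102 depending on the array. No detection calls were used, so this level was set against 67 probe sets of 41 genes of other tissues such as liver, muscle and retina. Of these, 44 (65.7%) were dim on all 12 arrays and 5 were above the level on all 12, so it separates expressed from silent genes only roughly. The mast cell markers matched the labelled cell type: all 10, among them Kit, Fcer1a and Cpa3, were above the level on all 12 arrays. Their summed signal was 277700 to 321500 in IL3 and 283100 to 321200 in IL3+SCF. Kit differed by -0.01 (log2, SE 0.06) and Fcer1a by -0.02 (SE 0.06). None of the 10 was called in the fit described below. Hdc was at 0.62 (SE 0.23) and was called under some other settings, and Tpsb2 was at 0.05 by its brightest probe set and 0.91 by another.

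By array, 6 to 8 of the 13 interleukin probe sets were above the dim level in IL3 (median 7) and 7 to 9 in IL3+SCF (median 9). Above it on every array of their group were 6 in IL3 and 7 in IL3+SCF. For testing, a probe set had to exceed the level on at least 6 arrays, which left 27183 probe sets in all and 8 of the 13, from 6 of the 10 genes. These were compared with limma on log2(signal + 16), with Benjamini-Hochberg adjustment over all 27183. Adding 16 steadies dim values and makes their fold changes smaller than the signals show. Of the 8, 4 were called at an adjusted p below 0.05 and all 4 were higher with SCF, against 17.3% of all tested probe sets called higher, 13.6% called lower and 30.9% called in either direction. The same 4 did not overlap between groups, against 8.94% of all tested probe sets that did so upward. They belong to 3 genes, Il16 counting as 2 of the 4, and the Il18 probe set entered the test only through its IL3+SCF arrays. The median change of all tested probe sets was 0.04 on the log2 scale. Each culture was measured as a whole, so fewer cells that make a transcript and less transcript per cell cannot be told apart.

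**Figure D1:**
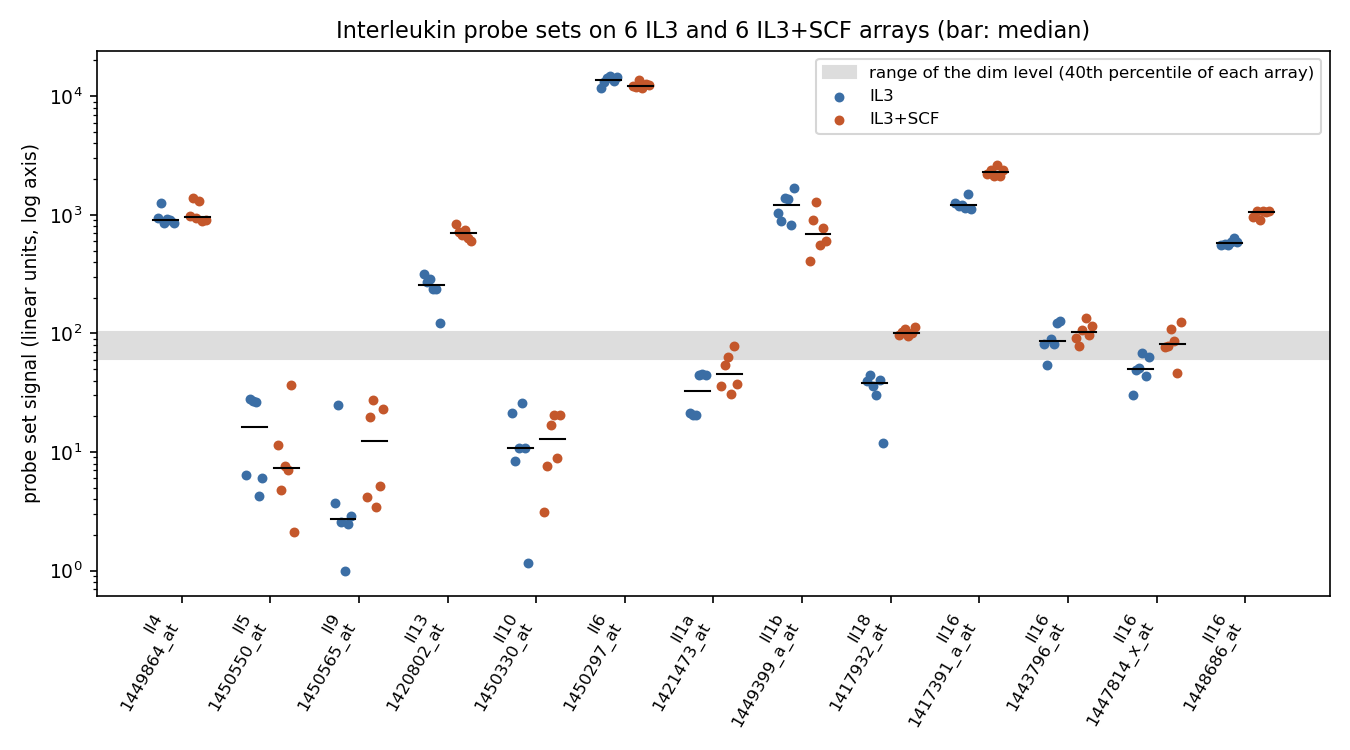
Signal of each of the 13 interleukin probe sets (linear units on a log axis) on the 6 IL3 and 6 IL3+SCF arrays. Points are single arrays, black bars are group medians and the grey band spans the dim level of the 12 arrays (60.9 to 102). Il6 lies far above the band, Il5, Il9, Il10 and Il1a lie in or below it, and the groups separate for Il13, Il18 and the Il16 probe sets 1417391_a_at and 1448686_at.

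Il13, a type 2 cytokine that causes mucus production and airway reactivity, rose with SCF. Its probe set 1420802_at had a lowest, median and highest signal of 122, 255 and 316 in IL3. In IL3+SCF the lowest, median and highest were 597, 699.7 and 836. Every IL3+SCF array was thus above every IL3 array, and IL3 replicate 6 was the low one of its group, the other 5 lying between 235 and 316. The means were 245 ± 67.6 and 703 ± 83.7 (SD, n = 6), a log2 change of 1.51 (SE 0.18, 95% interval 1.11 to 1.90, limma adjusted p = 5.97e-05). A rise of at least 2-fold that also passed was seen for 1.67% of all tested probe sets. Without IL3 replicate 6 the change was 1.33. The transcript was above the dim level on all 12 arrays, but in IL3 it never reached the 60th percentile of its array.

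Il4, the cytokine that switches B cells to IgE and that lies next to Il13 on the chromosome, did not pass. Its probe set 1449864_at had a lowest, median and highest signal of 848, 909 and 1261 in IL3 and of 885, 961 and 1378 in IL3+SCF. The groups overlapped over most of their range, and all 12 arrays were above the 60th percentile. The means of 954 ± 155 and 1066 ± 217 (SD, n = 6) gave a log2 change of 0.15 (SE 0.13, limma adjusted p = 0.442). The 95% interval of -0.14 to 0.44 leaves out a change as large as that of Il13. The gap between the Il13 and Il4 changes was 1.36 on the log2 scale (SE 0.20). That gap was compared by an exact permutation test, two-sided, over 6 against 6 arrays, and p = 0.002165 is the smallest it can give. The pair was chosen for this test after its values were seen.

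**Figure D2:**
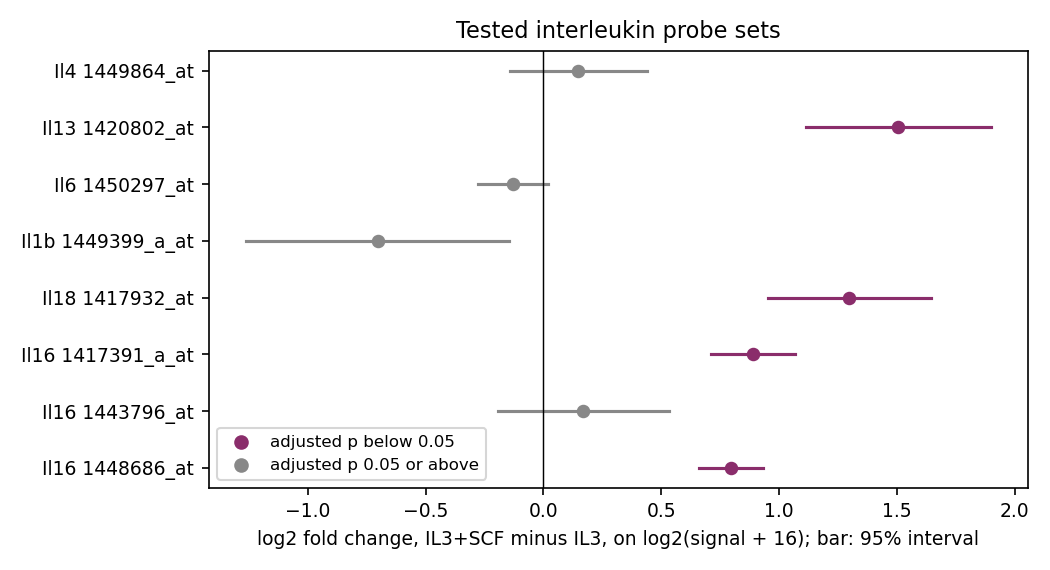
Log2 fold change, IL3+SCF minus IL3, of the 8 tested interleukin probe sets on log2(signal + 16). Points are limma estimates, bars are 95% intervals and purple marks an adjusted p below 0.05. Il13, Il18 and an Il16 pair lie wholly above 0, the Il1b interval of -1.26 to -0.14 lies below 0 without passing adjustment, and the Il4 and Il6 intervals hold 0.

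The other type 2 members and Il10 gave no signal that could be told from background. Il5, the growth and survival factor of eosinophils, had signals of 4.28 to 28.0 in IL3 (median 16.3) and 2.10 to 37.1 in IL3+SCF (median 7.30). Il9, which promotes mast cell growth, had signals of 0.989 to 24.8 (median 2.74) and 3.46 to 27.5 (median 12.4). Il10 had signals of 1.15 to 26.0 (median 10.8) and 3.11 to 20.5 (median 13.0). All 36 of these values lay below the dim level of their array, and the groups overlapped for each gene. At this level the arrays could not show a difference, and none of the 3 genes was called when the filter was dropped.

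Il13 and Il4 share a stretch of chromosome 11 with Il5, separated by Rad50, a DNA repair gene that carries regulatory elements of the locus. The plot by chromosomal order shows the changes of the genes on both sides. Rad50 changed by -0.08 (SE 0.08, limma adjusted p = 0.511) and Irf1, an interferon-response factor beyond Il5, by 0.09 (SE 0.08, adjusted p = 0.462). On the other side of Il4, Kif3a, a motor of cilia, rose by 0.57 (SE 0.11, adjusted p = 0.00163), with 3 of its 4 tested probe sets called higher and the fourth at 0.04. Csf2, which encodes the growth factor GM-CSF and lies farther along, was dim on all IL3 arrays (31.4 to 82.2) and above the level on all IL3+SCF arrays (121 to 233). That is at least 2-fold higher, with an adjusted p of 8.33e-05 by limma. Its fitted change of 1.57 (SE 0.20) is measured against background, and the gene was tested only through its IL3+SCF arrays. The list of 13 genes around the cytokines had 9 tested, of which 2 (Csf2 and Kif3a) rose, 1 fell and 6 were not called, with a median of 0.09 against 0.02 over all genes. The 3 of 9 called stand beside 33% of all genes called in either direction, so the count is near the background.
The gene that fell was Aff4, an elongation factor subunit, at -0.19 (SE 0.06, adjusted p = 0.0305). Its other tested probe sets were at 0.68 and 0.72, and its call was lost under median centring and without any 1 of 6 arrays (IL3 replicates 2, 3, 4 and 6, IL3+SCF replicates 2 and 4). Il3 was dim on all 12 arrays. Septin8, a cytoskeletal gene beside Kif3a, was not called by its brightest probe set (-0.28, adjusted p = 0.211), while another of its probe sets, 1426801_at, was called lower (change -0.77, SE 0.09, adjusted p = 5.04e-05).

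**Figure D3:**
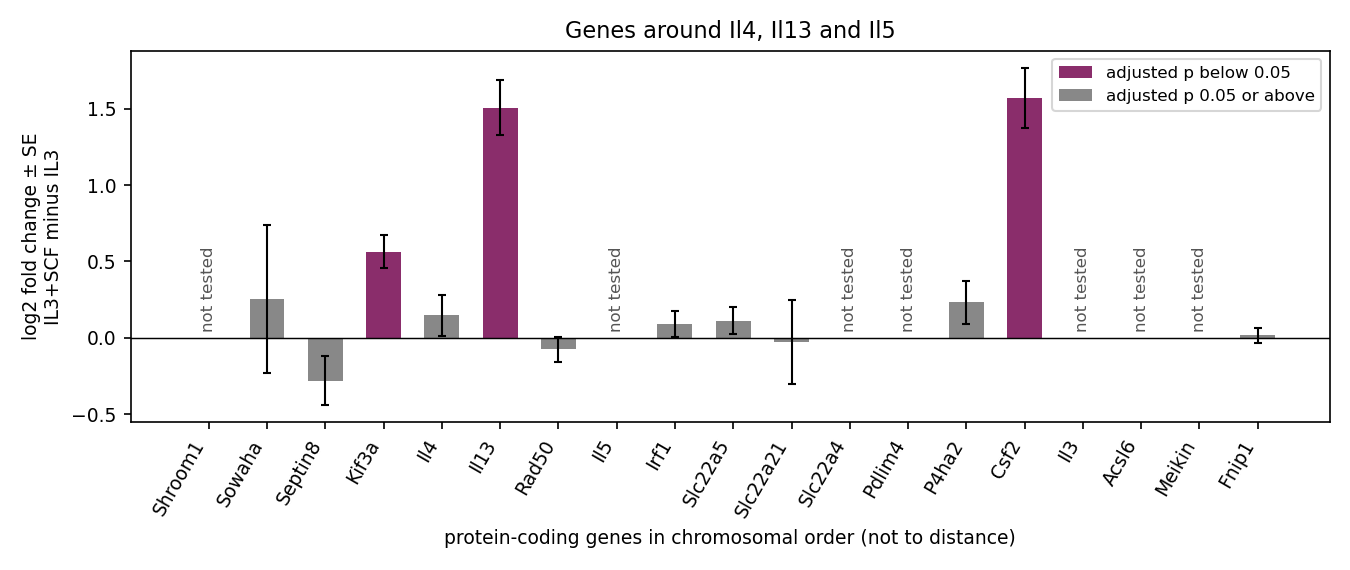
Log2 fold change (bars) with its standard error (lines) for genes in their order around Il4, Il13 and Il5, taken from RefSeq (GRCm38.p6) and not drawn to distance. Each gene is shown by its brightest tested probe set, purple marks an adjusted p below 0.05, and genes that were dim or had no probe set kept under that symbol read "not tested". Il13 stands at 1.51, while the Csf2 bar is a fitted value against a group dim on every array, for which only at least 2-fold holds.

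Il6, an inflammatory cytokine that acts on B cells, liver and other tissues, was far above the dim level on all 12 arrays. Its probe set 1450297_at had a lowest, median and highest signal of 11828, 13798 and 14935 in IL3 and of 11716, 12282 and 13658 in IL3+SCF. The IL3+SCF arrays lay within the range of the IL3 arrays or just below it. The log2 change was -0.13 (SE 0.07, 95% interval -0.28 to 0.02, limma adjusted p = 0.171), so the interval leaves out any change near 2-fold.

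Il1b, made as a precursor that inflammasomes activate, was lower on average with SCF but did not pass. Its probe set 1449399_a_at had a lowest, median and highest signal of 817, 1201 and 1687 in IL3 and of 407, 687 and 1280 in IL3+SCF. The groups overlapped: IL3+SCF replicate 3, at 1280, was higher than 3 of the IL3 arrays. The means were 1196 ± 336 and 753 ± 310 (SD, n = 6), a log2 change of -0.70 (SE 0.26, limma adjusted p = 0.0555). The gene was called without IL3+SCF replicate 3 (-0.87, adjusted p = 0.0147) or without IL3 replicate 5 (-0.80, adjusted p = 0.0380). It was also called under quantile normalization, median centring, a pseudocount of 64 or a 60th percentile filter, with adjusted p of 0.0369 to 0.0475. Without IL3 replicates 3 and 6, the arrays with the highest neutrophil transcripts, the change was -0.51 (adjusted p = 0.230). Without IL3 replicates 4 and 5 it was -0.77 (adjusted p = 0.0766). Il1b was called in neither of these fits, and each rests on fewer arrays than the main fit.

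Il1a, the other IL1 cytokine, was dim on all 12 arrays, with signals of 20.4 to 45.4 in IL3 (median 32.9) and 31.1 to 78.0 in IL3+SCF (median 45.4). It exceeded the 30th percentile on 1 IL3 and 3 IL3+SCF arrays, and the groups overlapped.

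Il18, which acts with other cytokines to induce interferon gamma or type 2 responses, was dim on all 6 IL3 arrays and above the dim level on all 6 IL3+SCF arrays. Its probe set 1417932_at had a lowest, median and highest signal of 11.9, 37.9 and 44.2 in IL3 and of 94.4, 101 and 114 in IL3+SCF. The groups were far apart for so dim a gene, and IL3 replicate 6 was again the low array, the other 5 lying at 30.1 to 44.2. Measured against the dim level, Il18 was at least 1.22-fold higher with SCF. The fitted log2 change was 1.30 (SE 0.16, limma adjusted p = 6.89e-05). It is measured against background, and the gene entered the test only through its IL3+SCF arrays. The fitted size also depends on the constant added before taking logs, being 0.78 with a pseudocount of 64 and 1.69 with 1. No array reached its 60th percentile, so the transcript was low with SCF too.

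Il16, a chemoattractant of CD4-bearing cells whose precursor also has a nuclear form, was bright in both groups. Probe set 1417391_a_at had a lowest, median and highest signal of 1124, 1207 and 1493 in IL3 and of 2109, 2291 and 2610 in IL3+SCF. The groups did not overlap, and the log2 change was 0.89 (SE 0.08, 95% interval 0.71 to 1.07, limma adjusted p = 8.2e-06). Probe set 1448686_at had a lowest, median and highest of 560, 576 and 643 against 909.8, 1059 and 1085, again without overlap, and a log2 change of 0.79 (SE 0.06, adjusted p = 2.22e-06). Both were designed to the same accession, so they are not separate evidence of each other.
The remaining Il16 probe sets were near background. Probe set 1443796_at had means of 92.5 ± 27.1 and 104 ± 19.5 (SD, n = 6) and exceeded the dim level on 4 arrays of the IL3 group and 5 of the other, with a log2 change of 0.17 (SE 0.17, adjusted p = 0.488). Probe set 1447814_x_at had means of 51.0 ± 13.4 and 87.0 ± 27.5 and was above it on 1 and 4 arrays, too few for the test. With no filter its log2 change was 0.60 (adjusted p = 0.0606). It entered the test in several fits that left out arrays, and was called in 4 of them, with adjusted p of 0.00585 to 0.0481.

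Other interleukins and related cytokines were mostly silent. Of 25 listed, 21 had a probe set, 14 were dim on all 12 arrays and 4 were tested, with a median change of 0.18. Among the dim were Il33, Il25, Il31, Il17a, Ifng and Il12b. Csf2 rose as given above. Tgfb1, a regulatory cytokine, was called higher at 0.25 (SE 0.07, limma adjusted p = 0.0242), but its other probe set was lower (-0.50, adjusted p = 0.0215). The first call was also lost under median centring and without any 1 of 5 arrays (IL3 replicates 2, 3 and 4, IL3+SCF replicates 2 and 4). Tnf, the inflammatory cytokine stored in mast cell granules, ranged from 390 to 5745 on the IL3 arrays and from 515 to 807 on the IL3+SCF arrays. Its groups overlapped and its change of -1.16 (SE 0.59, adjusted p = 0.159) was not called, though without IL3 replicate 5 it was. Il15 changed by 0.11 (adjusted p = 0.247).

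Receptor chains for these interleukins included called genes of both directions. Of 19 listed, 18 had a probe set and 14 were tested: 2 rose, 3 fell and 9 were not called, with a median of 0.00. That is 5 of 14, beside 33% of all genes called in either direction. Il1r2, a decoy receptor that binds IL1 without signalling, went from a mean signal of 1482 ± 542 without SCF to 215 ± 97.8 with it (SD, n = 6). Its log2 change of -2.71 (SE 0.31, limma adjusted p = 4.31e-05) was the largest fall in the list, and its groups did not overlap. Il6st, the shared signal chain gp130 of the IL6 family, fell by 1.02 (change -1.02, SE 0.20, adjusted p = 0.00192), with all 3 of its probe sets between -1.02 and -1.01. Il18rap, the IL18 coreceptor, was called lower at -0.33 (adjusted p = 0.0317), a call lost under median centring and in 8 of the 12 fits that left out 1 array (it held when the array omitted was 1, 2 or 4 of the IL3 group or 1 of the IL3+SCF group).
Il5ra, the binding chain of the IL5 receptor, rose from a mean signal of 276 ± 47.2 to 581 ± 78.6, a log2 change of 1.04 (SE 0.12, adjusted p = 4.67e-05). Its ligand was dim on all arrays. Il10rb, a chain of the IL10 receptor, rose by 0.64 (SE 0.07, adjusted p = 2.41e-05). Il4ra, a chain of the IL4 and IL13 receptors, was at 0.01 (SE 0.08) by its brightest probe set, at 0.03 by another and at -0.64 (SE 0.28, adjusted p = 0.105) by the third, and none was called. Il18r1, the binding chain of the IL18 receptor, was at 0.15 (SE 0.08, adjusted p = 0.176). Il13ra1, Il9r and Cd4, the last a receptor for IL16, were dim on all 12 arrays. Cd9, listed here as another IL16 receptor, was above the dim level on all 12. Its mean signal was 16066 without SCF and 17740 with it, and its change of 0.15 (limma adjusted p = 0.211) was not called.

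**Figure D4:**
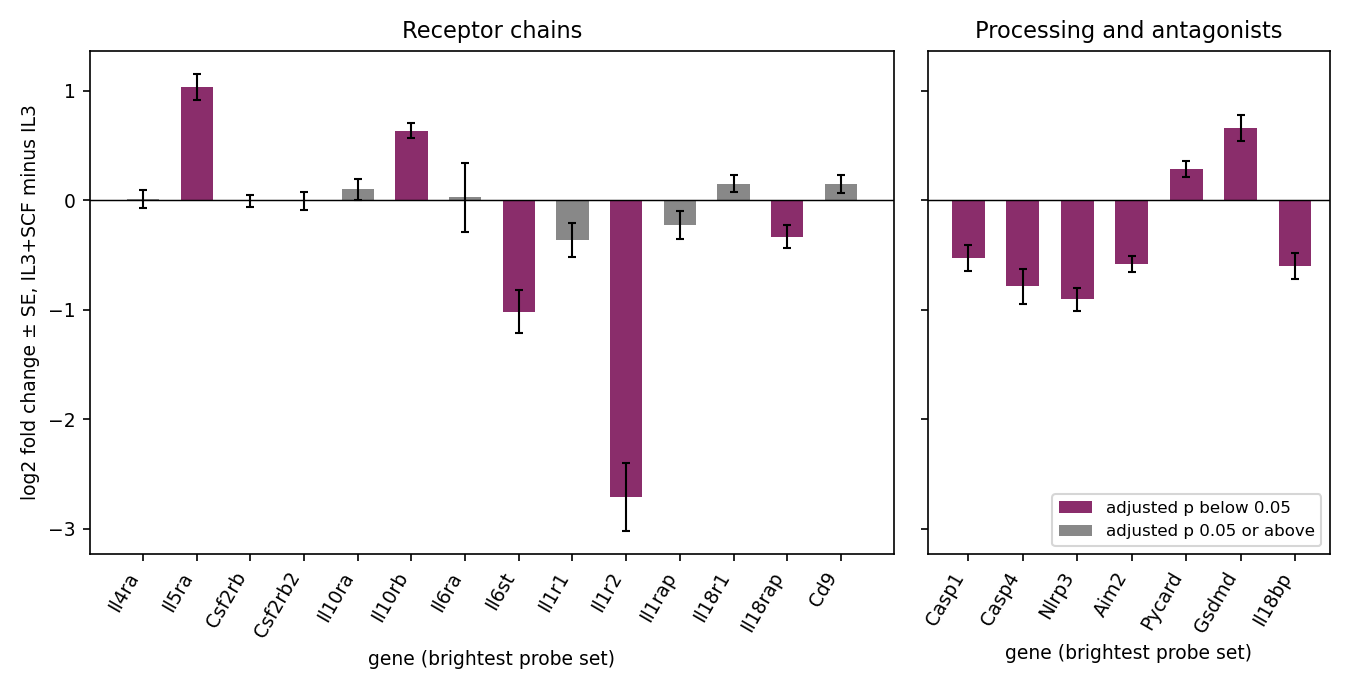
Log2 fold change (bars) with its standard error (lines) for the tested receptor chains of the interleukins (left) and for genes that process or antagonise IL1, IL18 and IL16 (right), by each gene's brightest probe set. Purple marks an adjusted p below 0.05. Il1r2 (-2.71) is the lowest bar and Il5ra (1.04) the highest, and on the right 5 of 7 bars lie below 0.

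Genes that activate or antagonise IL1 and IL18 were mostly lower with SCF. Of 11 listed, 8 had a probe set and 7 were tested, of which 5 fell, 2 rose and 0 were left uncalled, with a median of -0.58. Over all genes, 15.5% were called lower and 17.5% higher. Nlrp3, the sensor of an inflammasome, fell from a mean signal of 3030 ± 475 to 1599 ± 123 (SD, n = 6), a log2 change of -0.90 (SE 0.11, limma adjusted p = 4.8e-05). Casp4, which encodes the caspase that senses cytosolic lipopolysaccharide in mice, changed by -0.79 (SE 0.16, adjusted p = 0.00256). Casp1, the protease that cuts the IL1B and IL18 precursors, was at -0.53 (SE 0.12, adjusted p = 0.00418). Aim2, a DNA sensor, and Il18bp, a secreted inhibitor of IL18, were at -0.58 and -0.60. Gsdmd, the pore protein through which mature IL1B leaves cells, rose by 0.66 (SE 0.12, adjusted p = 0.00117).
Pycard, the inflammasome adaptor, was called at 0.28 (SE 0.07, adjusted p = 0.0109). Its other probe sets were at -0.02 and 0.15, and its call was lost under median centring and without IL3 replicates 3 and 6. Il1rn, the IL1 receptor antagonist, was dim on all 12 arrays.

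Transcription factors known to act on interleukin genes were called in both directions. Of 35 listed, 33 had a probe set and 31 were tested: 5 rose, 12 fell and 14 were not called, with a median of -0.04. Over all genes 17.5% were called higher, which 5 of 31 is near, and 15.5% lower. The largest rises were of Nfil3, a bZIP factor that regulates IL3 and type 2 cytokine genes, at 0.78 (SE 0.11, limma adjusted p = 0.000265), and Maf, an activator of Il4, at 0.68 (SE 0.11, adjusted p = 0.000466). All 5 Maf probe sets were higher, by 0.64 to 1.11. Gata3, the type 2 regulator of T cells, rose by 0.50 (SE 0.10, adjusted p = 0.00197), while Gata2, the main GATA factor of mast cells, was at 0.01 (SE 0.06). The largest falls were of AP-1 subunits. Fosb went from a mean signal of 3241 without SCF to 271 with it (change -3.44, SE 0.71, adjusted p = 0.00289), and Junb was at -2.14 (SE 0.29, adjusted p = 0.000148).
These AP-1 genes are immediate early genes, which cells switch on within minutes of many signals, handling included. Of 16 such genes, all tested, 0 rose, 12 fell and 4 were not called, with a median of -0.80, beside 17.5% of all genes called higher and 15.5% lower. Nr4a1, a nuclear receptor of this class, was at -2.69 (SE 0.56, adjusted p = 0.0028). Egr1, Egr2, Fos, Fosb, Jun, Junb and Atf3 are counted as fallen in both lists, so the falls of the lists are not separate results. The other transcription factors that fell were Stat3, Stat5a, Rel, Cebpa and Cebpb. On single IL3 arrays Fosb lay between 548 and 7289, and IL3 replicates 1 (583) and 5 (548) were lower than IL3+SCF replicate 1 (921). Tnf, given above, was likewise spread over the IL3 arrays. The part of this early response in the interleukin values was not tested.

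Summed signals of marker lists of other blood cells differed between the groups for some lists. Bright genes weigh most in such a sum, so it can follow a few genes while others of the list stay dim. The neutrophil list (15 listed, 13 with a probe set, 1 above the dim level on all IL3 arrays and 0 on all IL3+SCF arrays) summed to 410 to 7376 in IL3 and 307 to 474 in IL3+SCF. The difference in mean gave an exact permutation p = 0.0130, two-sided, and 0.0260 after Benjamini-Hochberg adjustment over the 8 marker lists. S100a9, a calcium-binding protein abundant in neutrophils, was at 2776 and 3475 on IL3 replicates 3 and 6, at 51.3 to 516 on the remaining 4 of that group and at 51.0 or less with SCF. Elane, Ltf, Cxcr2 and Csf3r, which define neutrophils and their precursors, were dim on all 12 arrays.
The monocyte and macrophage list (15 names, 12 with a probe set, 8 above the level on all IL3 arrays and 7 on all IL3+SCF arrays) summed to 13370 to 18080 in IL3 and 4615 to 5491 in IL3+SCF (exact permutation p = 0.002165, adjusted 0.0173). Of its 8 tested genes 4 fell, 1 rose and 3 (Ccr2, Adgre1 and Ctss) were not called, beside 15.5% of all genes called lower and 17.5% higher. Cx3cr1, the fractalkine receptor, was at -3.90, and the near-identical lysozyme genes Lyz1 and Lyz2, whose probe sets may share signal, were at -1.96 and -1.59, while Cd68, a lysosomal protein, rose by 1.28. Cd14, Mrc1 and Marco were dim on all 12 arrays.
The T, NK and innate lymphoid list (13 listed, 10 with a probe set, 2 above the level on all arrays of each group) summed to 1864 to 2641 and 1275 to 2036 (exact permutation p = 0.00433, adjusted 0.0173), with Cd3d, Cd3g, Cd4, Ncr1 and Thy1 dim throughout. Its 3 tested genes were all called by limma, beside 33% of all genes called in either direction. Il7r, the IL7 receptor, went from a mean signal of 1371 to 335 (change -2.20, SE 0.36, adjusted p = 0.000615). Gata3 rose as given above. Nkg7, a granule protein of killer cells, was at -1.40 (adjusted p = 0.0453), above the dim level on 4 and 2 arrays, and its call held without IL3 replicate 4 or IL3+SCF replicate 1 or 2 but was lost when any 1 of the remaining arrays was left out. The B cell list (7 listed, 6 with a probe set, 1 and 0 above the level on all arrays) summed to 234 to 600 and 119 to 262 (exact permutation p = 0.00649, adjusted 0.0173), with Cd79b, Ms4a1, Pax5 and Cd22 dim. Its 1 tested gene, Ighm, the heavy chain of IgM, went from a mean signal of 287 to 43.3 (change -2.55, SE 0.36, limma adjusted p = 0.000185), above the dim level on 6 and 2 arrays. The basophil sums were 26040 to 31910 and 27830 to 30140, the eosinophil sums 977 to 1577 and 653 to 1259, and the dendritic cell sums 866 to 1555 and 835 to 1229, with adjusted p of 0.196, 0.0520 and 0.435 by the same exact permutation test. Of 5 tested basophil genes, Il3ra (0.44) and Cd200r3 (0.31) were called higher and Gda (-0.44) was called lower. These calls stand beside 17.5% of all genes called higher and 15.5% lower. The other 2, Mcpt8 and Ccr3, were not called, and Itga2 was dim. Mcpt8 was above the dim level on all 12 arrays, at 437 to 4782 in IL3 (the highest on IL3 replicate 1) and 577 to 954 with SCF. Its change was -0.59 (SE 0.42, limma adjusted p = 0.321). The 2 tested eosinophil and 3 tested dendritic cell genes were not called, with Epx and Prg3, and Flt3, Itgax, Xcr1, Siglech and Cd209a, dim. Prg2, an eosinophil list gene that was not tested, was above the dim level on IL3 replicates 3 (178) and 6 (220) and dim on the remaining arrays.

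The arrays with the most neutrophil transcript bear on the members as follows. IL3 replicate 6 had the highest S100a9, the highest Il1b (1687) and the lowest Il13 (122) and Il18 (11.9) of its group. IL3 replicate 3 had the next highest S100a9 and Il1b (1383), with Il13 at 285 and Il18 at 35.8, inside the range of the other arrays. S100a9 was dim on IL3 replicates 4 (51.3, the lowest of the group) and 5 (62.2). Their Il1b was 1357 and 817, close to that of replicate 3 on the former and the lowest of the group on the latter. Without IL3 replicates 3 and 6, Il13 was at 1.36 (SE 0.11, limma adjusted p = 3.17e-05) and Il18 at 1.13 (adjusted p = 2.08e-05). Il16 was at 0.85 (adjusted p = 0.000218) on 1417391_a_at and 0.78 (adjusted p = 8.61e-05) on 1448686_at. Leaving out these arrays does not even out other myeloid transcripts. Lyz2 was at 1755 to 2190 on the remaining IL3 arrays and at 601 to 950 with SCF. The part of other cells in the Il1b, Il13, Il18 and Il16 differences was not tested.

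**Figure D5:**
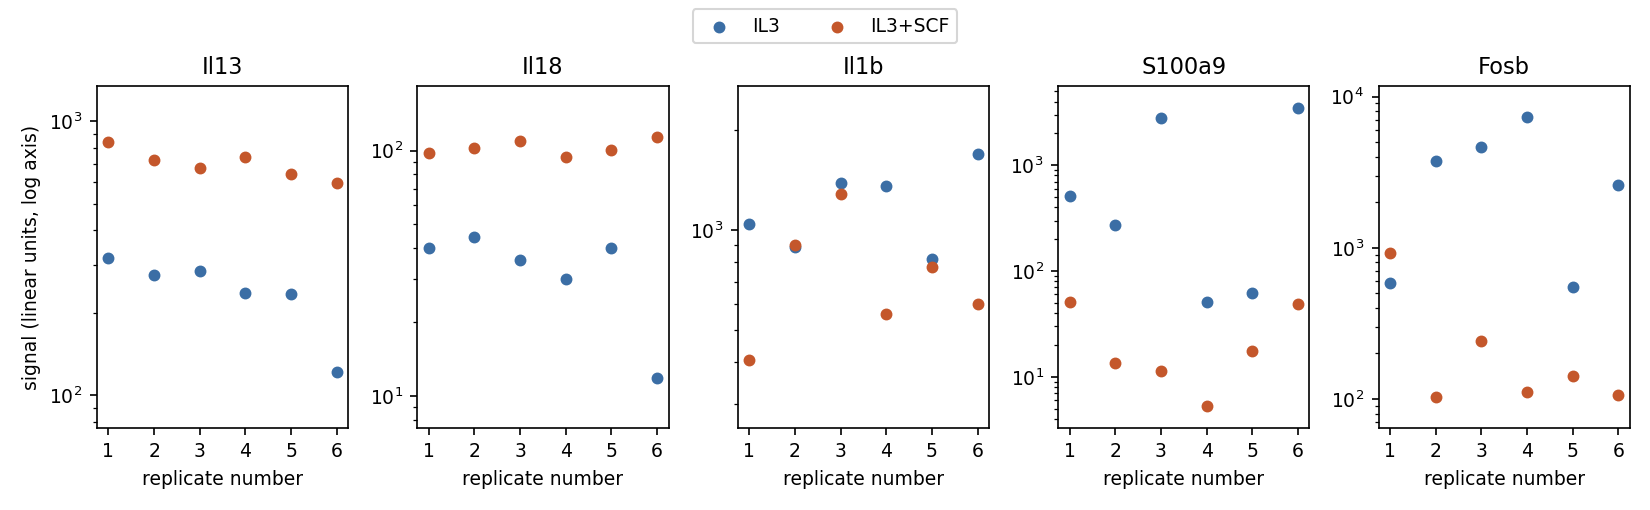
Signal (linear units on a log axis) of Il13, Il18, Il1b, the neutrophil gene S100a9 and the immediate early gene Fosb on each array. Arrays are placed by the replicate number the labels give, which the main fit did not use to pair them. All IL3+SCF points lie above the IL3 points for Il13 and Il18 and below them for S100a9, and the groups overlap for Il1b and Fosb. IL3 replicates 3 and 6 stand high for S100a9 and IL3 replicate 6 low for Il13 and Il18.

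For the 3 genes called, the genes whose log2 values were most like theirs over the 12 arrays were listed by Pearson's r among 11434 other genes, each by its brightest probe set. Nearest to Il13 were Igsf5 (r = 0.973), B4galt5 (0.972) and Fblim1 (0.971), and 275 genes exceeded 0.9. Nearest to Il18 were Bsn (0.988), 2610008E11Rik (0.983) and Cnrip1 (0.983), with 274 over 0.9, and nearest to Il16 were Tnfaip8l2 (0.991), Plxnd1 (0.990) and Parp8 (0.988), with 548 over 0.9. The arrays share 1 group difference, so any gene that moved with SCF scores high. With each group's mean taken off, r was 0.805 to 0.818 for the Il13 genes, 0.884 to 0.915 for the Il18 genes and 0.825 to 0.911 for the Il16 genes. The genes were picked by r over these same arrays, so the values with group means taken off are not a separate check. Il18 was dim on every IL3 array, and IL3 replicate 6 was the low IL3 array for both Il13 and Il18. These r values are descriptions over 12 arrays in 2 groups, with no test.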

How the data were processed

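Gene expression was measured in 6 IL3 and 6 IL3+SCF samples, grouped by their labels, from 50 ng of RNA each by whole-transcript amplification (per the labels' protocols). The deposited values are linear intensity per probe set. The submitters' processing notes name GCOS 1.4. How background was corrected, and the level to which arrays were scaled, is not stated by any source used here. Of 45037 probe sets, leaving out 64 controls, 34945 had 1 gene symbol in the annotation, 932 several and 9160 none. Probe sets above the 40th percentile of their array on at least 6 arrays (27183) were tested two-sided in R 4.3.3 by lmFit and eBayes of limma 3.58.1, with group as the only term, a pseudocount of 16 and a Benjamini-Hochberg threshold of 0.05. Genes of lists were represented by their brightest probe set, without set tests. Single values per array were compared by exact permutation over 924 splits. The fit was tested on simulated data with known changes. Other settings are given in the closing section. The precision is limited by the number of arrays.

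The members, lists and tests were chosen with earlier results of these data known. List genes under pseudocounts of 1 and 64, array weights and left-out arrays were added after the data were seen. Named genes were all members, the 2 largest called rises and falls of each pathway list, the defining markers and sums of the marker lists, and the 3 genes most like each called member; any other gene was named after its values were seen. Promoters were matched by symbol. Figures used matplotlib 3.10.9 in Python 3.11.15, with scipy 1.17.1. Septin8 had been listed by its older symbol and was corrected after the data were seen.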

Additional observations from a re-analysis of the deposited data

Results flagged for a closer look

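In 5 of 26 groups of 6 arrays, 1 array lay far from the others of its group (Dixon's criterion at 95%, which chance meets in about 1 in 20 groups). IL3 replicate 6 was the lowest IL3 array for Il13, at a signal of 121.9, and for Il18 (1417932_at), at 11.86. IL3 replicate 2 was the highest for Il4, at 1261, and for Il9, at 24.78, which is dim. IL3 replicate 5 was the highest for Il16 (1448686_at), at 643.1. All 5 are IL3 arrays. The calls of Il13, Il18 and this Il16 probe set, and the lack of a call for Il4, stayed the same without these arrays.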

How the results depend on the processing

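Il13, Il18 and the Il16 probe sets 1417391_a_at and 1448686_at kept direction and call under every alternative that tested them, Il13 at 1.33 to 1.59, Il18 at 0.78 to 1.69, Il16 at 0.85 to 0.94 and 0.75 to 0.83. Il18 passed the main filter only through its IL3+SCF arrays and was not tested under the 60th percentile filter. Il4, Il6 and 1443796_at of Il16 were called under none, and Il1b, at -0.87 to -0.51, under 6 of 23 (adjusted p from 0.0147 to 0.230). The member calls numbered 3 to 5 against 4, between 4 and 5 with 1 array left out. Over all probe sets, 8401 were called, 7371 to 8996 with 1 array left out and 4051 with only the brightest probe set of each gene, which tests 11435. The replicate number as a block gave 6609 calls and 4 of members, and, of the list genes named here, ended the calls of Tgfb1, Aff4, Il18rap and Pycard. Over all tested probe sets, same-numbered arrays did not regularly deviate together (r from -0.242 to 0.31), and 3 of 12 arrays correlated best with their own number in the other group. A gene near the dim level has no measured fold, and none is given for Il5, Il9, Il10 and Il1a.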
